A study of Mus musculus with 4 samples.

Results

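RGS proteins (regulators of G-protein signalling) are the off-switches of receptor signalling through heterotrimeric G proteins. The set described here was 10 mouse genes, chosen by name: Rgs2, Rgs3, Rgs4, Rgs5, Rgs7, Rgs10, Rgs12, Rgs14, Rgs16 and Rgs19. Each was found as 1 row of a table of 22802 gene loci. They were read in cells of the postnatal day 10 testis of mFLE-Cre;CAG-CAT-EGFP mice on C57BL/6J, a genotype that all samples share. Cells that express EGFP were sorted after dispersal by whether they stained for laminin, and 2 RNA libraries of each population were sequenced. Both populations are EGFP-positive in the labels, but the design text gives the cells without laminin a weak EGFP signal, so laminin staining and EGFP level cannot be told apart as the difference between the groups. The labels do not say in which cells the mFLE driver acts, nor whether the libraries came from separate animals or pools, so the p-values cover the spread between these libraries alone, which may be technical.

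When a receptor is activated, the G alpha subunit binds GTP, separates from the beta and gamma subunits and signals until it hydrolyses the GTP. The RGS domain speeds up that hydrolysis and so shortens the signal. The family is divided by sequence into subfamilies: R4 (here Rgs2, Rgs3, Rgs4, Rgs5 and Rgs16), R7 (Rgs7), R12 (Rgs10, Rgs12 and Rgs14) and RZ (Rgs19). Rgs4 and Rgs5 are widely used as markers of mural cells, the pericytes and smooth muscle cells around vessels.

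Levels are given in FPKM, a fragment count scaled to transcript length and to the size of the library, so that genes can be compared with each other. FPKM summed to between 491475 and 548986 per library, the read depth is unknown, and 11794 to 12011 loci reached 1 FPKM. The populations carried the markers of different cells. All 8 Leydig cell markers fell in laminin-positive cells (summed FPKM 186 ± 32.8, against 4770 ± 182 in laminin-negative cells, SD, n = 2), while all 10 smooth muscle and peritubular myoid markers rose (200 ± 12.6 and 5976 ± 67.4). The 12 macrophage markers summed to 5.31 to 8.94 FPKM in laminin-negative and 51.4 to 57.9 in laminin-positive libraries. Of the 9 that were tested, 7 were under 1 FPKM in both laminin-negative libraries and so could pass the filter (at least 1 FPKM in 2 libraries) only through the population where they are high. Of 8 tested Sertoli markers 5 were called higher in laminin-positive cells (summed FPKM of all 10 82.5 to 92.5 against 163 to 177). Of 10 germ cell markers 7 were called higher and 1, Kit, lower. The germ cell markers summed to 57.9 to 61.4 against 56.9 to 58.6 FPKM, of which Kit made up means of 38.0 and 2.11. The filter forced the direction in the same way for 2 Sertoli, 2 germ cell, 1 smooth muscle and 1 Leydig marker. It did so too for the endothelial markers Tek and Emcn, each under 1 FPKM in both libraries of the population where it was low. Of all genes tested, 26.6% were called higher in laminin-positive cells and 26.3% lower. The 10 endothelial markers summed to 178 ± 4.82 against 20.1 ± 1.15 FPKM, of which Cdh5 made up 169 and 9.57. Of 4 tested endothelial markers Cdh5 and Tek were called lower and Emcn higher, while Pecam1, at 0.133 and 0.742 mean FPKM, was below the filter. The lymphocyte markers Cd3e, Cd3g and Nkg7 were listed at 0 in every library.

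Rgs5, Rgs4 and Rgs16, which all belong to the R4 subfamily, rose in laminin-positive cells, by 28.1-fold, 7.66-fold and 2.86-fold in mean FPKM. Rgs3 and Rgs19 fell slightly. Rgs2, Rgs10 and Rgs12 did not pass the test. Rgs7 and Rgs14 were at or near 0 in every library and were not tested. Thus 3 of the 8 tested members were higher, where 26.6% of all 12348 genes tested were, and 2 were lower, against 26.3% of all genes; together these 5 compare with 52.9% called in either direction. A gene was tested where at least 2 libraries reached 1 FPKM, and called at a limma adjusted p below 0.05. Every tested member but Rgs10 kept the libraries of the populations apart (7 of 8, against 77.2% of all genes tested), so most members did not stand out from the table by that measure. The median log2 difference over the tested members was 0.23, against 0.01 over all genes tested.

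**Figure D1:**
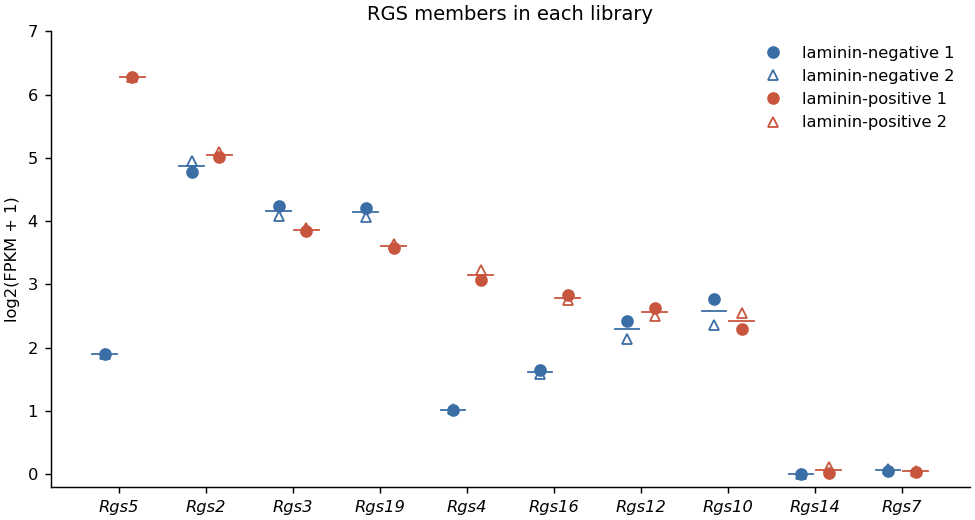
Level of each RGS member in each library, on the vertical axis as log2(FPKM + 1), with circles for replicate 1, triangles for replicate 2 and a short line at log2 of the group mean + 1. Rgs5 runs from a mean of 2.73 FPKM without laminin staining (blue) to 76.7 with it (red), Rgs4 and Rgs16 are also apart, and Rgs7 and Rgs14 lie on the floor in both.

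Rgs5, Rgs4 and Rgs16 lie on chromosome 1, and the 250 bases in front of their start sites are printed here because these are the members that rose together. The sequences are from RefSeq on GRCm38.p6, written 5′ to 3′ on the strand of the gene, ending at the base before the start site. Capitals mark matches to the CCAAT box (on either strand, so ATTGG is its reverse) and to the TATA box (TATAAA).
Rgs5, chr1:169655251-169655500, plus strand: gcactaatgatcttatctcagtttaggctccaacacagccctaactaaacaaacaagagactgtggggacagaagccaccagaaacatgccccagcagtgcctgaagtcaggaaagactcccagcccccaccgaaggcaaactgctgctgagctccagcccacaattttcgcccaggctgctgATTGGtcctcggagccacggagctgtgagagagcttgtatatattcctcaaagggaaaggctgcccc
Rgs4, chr1:169747643-169747892, minus strand: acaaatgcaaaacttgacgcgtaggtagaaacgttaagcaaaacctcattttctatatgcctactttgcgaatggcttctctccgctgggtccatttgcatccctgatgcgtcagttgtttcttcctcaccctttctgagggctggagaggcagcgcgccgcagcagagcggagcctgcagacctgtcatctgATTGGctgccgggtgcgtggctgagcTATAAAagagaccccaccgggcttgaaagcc
Rgs16, chr1:153740103-153740352, plus strand: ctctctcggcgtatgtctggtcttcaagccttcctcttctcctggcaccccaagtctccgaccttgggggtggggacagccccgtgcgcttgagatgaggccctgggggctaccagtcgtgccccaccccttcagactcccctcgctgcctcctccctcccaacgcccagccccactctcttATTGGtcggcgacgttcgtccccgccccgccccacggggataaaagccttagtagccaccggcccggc
Each of the 3 held 1 reversed CCAAT box, at positions -67 to -63 in Rgs5, -57 to -53 in Rgs4 and -68 to -64 in Rgs16, counted back from the start site. Of all 32851 start sites in the table, 33.8% held a CCAAT box in this window on either strand, and that of Rgs2, which was not called, held one too. Only Rgs4 of the 3 held a TATAAA match (positions -31 to -26, against 12.4% of all start sites) and E-boxes (CANNTG, 4 matches, against 66.2%). None of the 3 held the letters of the RBPJ motif (TGGGAA, 21.6% of all start sites), the TEAD motif (GGAATG, 12.6%), the cyclic AMP response element (TGACGTCA, 1.55%), the SF-1 motif (AAGGTCA, 4.08%) or the CArG box (1.47%), searched on both strands. No match overlapped another, and a match describes letters, not a bound site.

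Rgs5 acts on the Gi and Gq classes of G alpha and is best known from pericytes and arterial smooth muscle. The gene lies at chromosome 1, 169655501 to 169695813 on GRCm38. The laminin-negative libraries read 2.75 and 2.72 FPKM and each laminin-positive library 76.7. Replicates were nearly equal and the populations far apart. The log2 difference, on the log2(FPKM + 1) scale used for all such differences here, was 4.38 (SE 0.08, limma adjusted p = 5.78e-11). By size it was number 15 among the rises of all 12348 genes tested. Among the genes tested, the level of Rgs5 went from percentile 17.6 in the laminin-negative population to 92.3 in the other.

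Rgs4, a close relative of Rgs5 that inhibits Gi and Gq signalling, lies beside it at chromosome 1, 169741477 to 169747642. Both laminin-negative libraries read 1.03 FPKM, and the laminin-positive ones 7.42 and 8.39. The log2 difference was 2.13 (SE 0.11, limma adjusted p = 7.39e-08), at place 227 among all rises. Its laminin-negative level lay close to the filter of 1 FPKM, which leaves the size of the ratio uncertain. With pseudocounts of 5 and 0.1 the log2 difference was 1.10 and 2.82. Even after that rise Rgs4 was a gene of moderate level, at percentile 39.9 of the genes tested, and 76.7 FPKM of Rgs5 stood beside 7.90 of Rgs4 in the same cells.

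Rgs16, a further small R4 protein that acts on Gi and Gq, lies at chromosome 1, 153740349 to 153745468. It was at 2.14 and 1.998 FPKM without laminin staining and at 6.09 and 5.75 with it, with no overlap (log2 difference 1.17, SE 0.11, limma adjusted p = 5.92e-06). Rgs4, Rgs5 and Rgs16 kept their calls under all 14 alternative settings tried.

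Other mural cell markers moved with Rgs4 and Rgs5. Of 12 mural genes in a list that leaves both out, 11 rose and 1, Vtn, fell, against 26.6% and 26.3% of all genes tested. Of the 11, 2 passed the filter only through laminin-positive libraries. The list summed to between 109 and 113 FPKM in laminin-negative libraries and to between 357 and 375 in laminin-positive ones. Mcam averaged 3.01 and 125 FPKM, Notch3 8.18 and 40.5, and the pericyte potassium channel gene Kcnj8 1.58 and 9.15. The rises were uneven, and other markers rose less. Pdgfrb averaged 13.5 and 26.85 FPKM, Cspg4 28.6 and 46.0, Des 31.4 and 53.2, and Anpep 5.93 and 7.72. Vtn, the 1 that fell, averaged 9.85 and 3.08. The smooth muscle markers given above rose in the same libraries. The part that a different mix of cells has in the rise of Rgs4 and Rgs5 was not tested, and in bulk RNA fewer cells of a type and less RNA per cell cannot be told apart.

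Rgs2, known for its strong preference for Gq and its role in limiting vessel contraction, was among the most abundant members in both populations (chromosome 1, 143999338 to 144004161). The laminin-negative libraries read 26.5 and 29.9 FPKM and the laminin-positive ones 31.2 and 33.03. The ranges did not overlap, but the gap was small beside the spread (log2 difference 0.18, 95% confidence interval -0.0038 to 0.37, limma adjusted p = 0.0919). With libraries set to equal FPKM sums it was called higher (0.0114), as it was without laminin-negative replicate 2 (0.0325), and the alternatives spanned 0.0114 to 0.365.

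Rgs3, a larger R4 protein with several isoforms that the gene-level values merge, lies at chromosome 4, 62559847 to 62704001. Levels were 17.8 and 15.9 FPKM in the laminin-negative libraries, then 13.3 and 13.8 in the others. The groups were apart, but the call (log2 difference -0.29, SE 0.09, limma adjusted p = 0.0182) was not stable. It was lost on leaving out either laminin-positive library (0.102 without replicate 1, 0.0551 without replicate 2) or laminin-negative replicate 1 (0.0884), with equal FPKM sums (0.155) and without variance shared across genes (0.144), between 0.00969 and 0.155 over all alternatives.

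Rgs19, also known as GAIP, is an RZ protein that acts on Gi and Gz (chromosome 2, 181688419 to 181693977). Its laminin-negative libraries read 17.5 and 15.7 FPKM, its laminin-positive ones 10.95 and 11.5. All laminin-negative values lay above all laminin-positive ones, at 1.48-fold in the means (log2 difference -0.53, SE 0.09, limma adjusted p = 6.29e-04). The call was lost only without variance shared across genes (0.0740), of the 14 alternatives. Leydig cell markers fell in the same libraries, and their part in the falls of Rgs3 and Rgs19 was not tested.

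The R12 members differed little or were not detected above the filter. Rgs12, a large scaffold protein that also binds Ras and inactive G alpha (chromosome 5, 34949445 to 35039644), was at 4.38 and 3.40 against 5.21 and 4.64 FPKM (log2 difference 0.28, 95% confidence interval 0.0034 to 0.56, limma adjusted p = 0.0827). It was called higher without laminin-negative replicate 1 (0.0218), with equal FPKM sums (0.0280) and when replicate numbers were blocked (0.0497), between 0.0218 and 0.393 over all alternatives. Rgs10, a small Gi regulator known from macrophages and microglia (chromosome 7, 128373621 to 128418758), was the tested member whose groups overlapped, at 5.82 and 4.12 against 3.91 and 4.82 FPKM. Its log2 difference was -0.15 (95% confidence interval -0.47 to 0.18, limma adjusted p = 0.432), and its direction turned without laminin-negative replicate 1 (0.06). The summed level of the macrophage markers was higher in laminin-positive libraries (51.4 to 57.9 against 5.31 to 8.94 FPKM), and its part in the level of Rgs10 was not tested. Rgs14, which pairs an RGS domain with Ras-binding and G alpha-binding parts (chromosome 13, 55369732 to 55384687), was listed at 0 in both laminin-negative libraries and at 0.0164 and 0.0791 FPKM in laminin-positive ones.

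Rgs7, the R7 member, is mainly a neuronal protein that works in complex with the beta subunit Gnb5 (chromosome 1, 175059087 to 175492500). The laminin-negative libraries held 0.0416 and 0.0540 FPKM, the laminin-positive ones 0.0273 and 0.0367. Like Rgs14 it was below the filter, and at such levels no difference can be read.

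**Figure D2:**
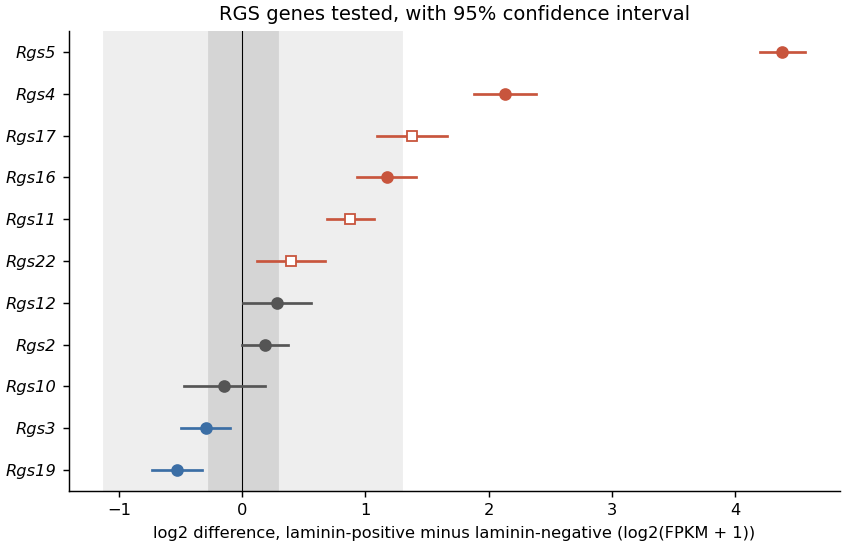
Log2 difference (laminin-positive minus laminin-negative, log2(FPKM + 1)) of the 11 tested RGS genes with its 95% confidence interval; filled circles are members, open squares other RGS genes, red is called higher, blue lower and grey not called. The dark band holds the middle 50% of all genes tested (-0.27 to 0.29) and the light band runs from their 5th to their 95th percentile (-1.12 to 1.30), and Rgs5, Rgs4 and Rgs17 (1.37) lie outside both.

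The order of the members by level changed between the populations. In laminin-negative cells it ran Rgs2 (28.2 mean FPKM), Rgs3 (16.9), Rgs19 (16.6), Rgs10 (4.97), Rgs12 (3.89), Rgs5 (2.73), Rgs16 (2.07) and Rgs4 (1.03), with Rgs7 and Rgs14 last. The ranges of Rgs3 and Rgs19, and those of Rgs10 and Rgs12, overlapped between libraries. In laminin-positive cells Rgs5 (76.7) came first, before Rgs2 (32.1), Rgs3 (13.6), Rgs19 (11.2), Rgs4 (7.90), Rgs16 (5.92), Rgs12 (4.92) and Rgs10 (4.36). Of these neighbours, the ranges of Rgs12 and Rgs10 overlapped, as did those of Rgs14 and Rgs7 below them. Rgs5 thus moved from place 6 to place 1.

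Summed over the 10 members, the level was 78.0 and 74.8 FPKM in laminin-negative libraries and 154.8 and 158.7 in the others, a ratio of 2.05. Without Rgs5 the sums were 73.7 ± 2.23 and 80.1 ± 2.77 FPKM (SD, n = 2), a ratio of 1.09. Most of the gap in the summed level was therefore that of Rgs5. Rgs5 made up 3.57% ± 0.0767 of the sum in the laminin-negative and 48.9% ± 0.880 of that in the laminin-positive libraries. The share of Rgs2 went from 36.9% ± 4.23 to 20.5% ± 0.479, that of Rgs3 from 22.1% ± 1.15 to 8.64% ± 0.0716 and that of Rgs19 from 21.8% ± 1.02 to 7.16% ± 0.121. Beside Rgs5, the shares of Rgs4 (1.35% ± 0.0443 to 5.04% ± 0.350) and Rgs16 (2.71% ± 0.0560 to 3.78% ± 0.219) were also larger. Shares add up to a fixed whole, so larger shares of some members go with smaller ones of the rest.

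**Figure D3:**
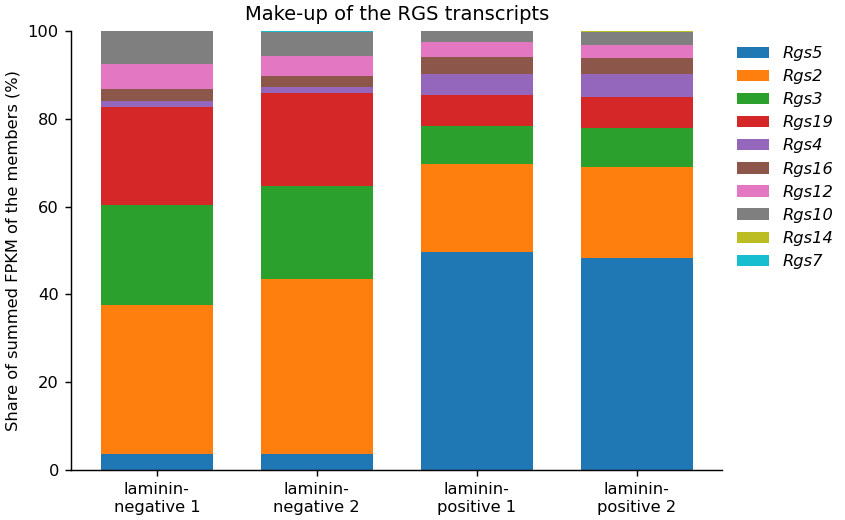
Share of each member in the summed FPKM of the 10 members (vertical axis, percent) in each of the 4 libraries. Rgs2, Rgs3 and Rgs19 fill most of the laminin-negative bars, and Rgs5 fills 49.6% and 48.3% of the laminin-positive bars.

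The 12 other genes named Rgs or Rgsl were mostly silent, with 9 below the filter and Rgs21 at 0 in every library. The 3 that were tested, Rgs11, Rgs17 and Rgs22, were called higher in laminin-positive cells (limma called 0 lower, also at an unadjusted p under 0.05). Over all genes tested 26.6% were called higher and 26.3% lower. Rgs11, an R7 protein known from retinal bipolar cells, was at 9.63 and 9.81 FPKM against 19.2 and 18.1 (log2 difference 0.88, SE 0.09, limma adjusted p = 9.42e-06). It overlaps Arhgdig on the opposite strand over 4836 bases, and Arhgdig was at 3.54 and 3.36 against 4.10 and 2.60 FPKM. Rgs17, an RZ protein that acts on Gi and Gz, was at 0.0351 and 0.0801 FPKM in the first and 1.67 and 1.82 in the second population (limma adjusted p = 6.08e-06). It passed the filter only through the population where it is high, so its direction was fixed by that filter, and its near-zero baseline leaves the size of the ratio uncertain. Rgs22, an RGS gene known from the testis, was at 1.25 and 1.01 FPKM against 1.74 and 1.84 (log2 difference 0.39, SE 0.12, limma adjusted p = 0.0216). The call of Rgs22 was lost on leaving out either laminin-positive library (0.0612 without replicate 1, 0.101 without replicate 2) or laminin-negative replicate 2 (0.0848), under quantile normalization (0.0569) and without variance shared across genes (0.107). Of the 10 germ cell markers 7 were called higher in the same libraries, Kit was called lower (38.0 and 2.11 mean FPKM), and Tex101 and Dnd1 were not called. Their part in the difference of Rgs22 was not tested. Rgs1 and Rgs18, known from white blood cells, reached at most 0.291 and 0.0498 FPKM in any library.

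By subfamily, R4 genes made up 57.2% and 60.7% of the summed FPKM of the genes in the 4 subfamilies in laminin-negative libraries and 76.2% and 76.8% in laminin-positive ones. RZ genes took 20.1% and 18.7%, then 7.18% and 7.46%, and R12 genes 11.6% and 8.86%, then 5.16% and 5.31%. R7 genes took 11.2% and 11.8%, then 11.4% and 10.5%, nearly all of it Rgs11. The R7 partner Gnb5 fell from 20.4 to 14.9 mean FPKM and the membrane anchor of R7 proteins, Rgs7bp, from 2.58 to 1.58. Both were named after their values were seen. Without variance shared across genes neither Gnb5 nor Rgs7bp was called (limma adjusted p = 0.0680 and 0.166). The call of Rgs7bp was lost without laminin-negative replicate 2 (0.0723) or laminin-positive replicate 1 (0.0944).

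Rgs4 and Rgs5 are direct neighbours, with starts 92.1 kb apart and on opposite strands, and 45.7 kb between their ends. The other genes around them did not share their rise. Of 5 other tested protein-coding genes whose start lies within 500 kb of either, 1 was called higher and 3 lower. Over all genes tested these shares were 26.6% and 26.3%. Ddr2, a collagen receptor, was at 29.0 and 26.9 against 31.6 and 35.2 FPKM (log2 difference 0.25). Hsd17b7, an enzyme of cholesterol synthesis, fell by 0.57 on the log2 scale, Uap1 by 0.66 and Uhmk1 by 0.28. The call of Ddr2 was lost without laminin-negative replicate 2 (0.124) or laminin-positive replicate 2 (0.258), and that of Uhmk1 without any 1 of the 4 libraries (0.0714 to 0.190). Without variance shared across genes Ddr2 (0.203) and Hsd17b7 (0.0581) were no longer called. Ddr2 was also not called with no filter (0.0617), a trimmed mean of log ratios (0.0530) or no intensity trend (0.0617), nor was Uhmk1 with no filter (0.0822) or equal FPKM sums (0.201). Nuf2, a kinetochore gene, was not called (limma adjusted p = 0.195). The rises of Rgs5 (4.38) and Rgs4 (2.13) were the largest in the window.

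**Figure D4:**
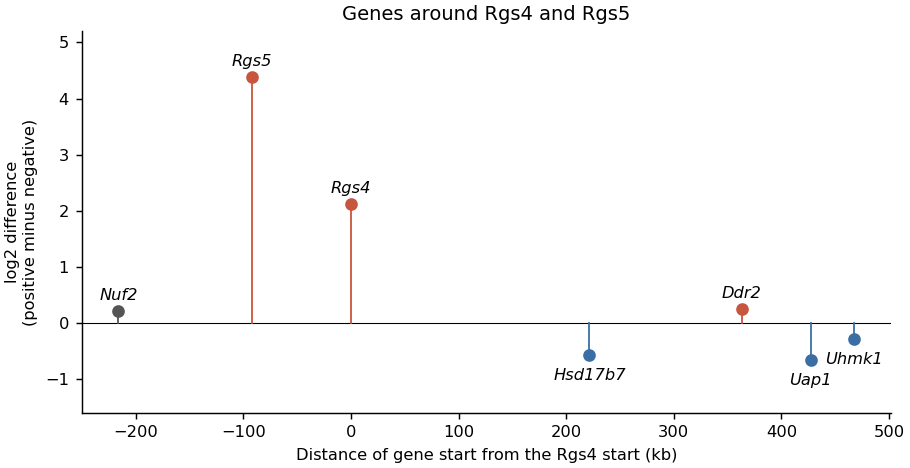
Log2 difference (laminin-positive minus laminin-negative) of the tested protein-coding genes around Rgs4 and Rgs5, against the distance of each gene's start from that of Rgs4 in kb; red is called higher, blue lower and grey not called. Rgs5 (4.38) and Rgs4 (2.13) stand above their neighbours, which lie between -0.66 and 0.25.

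By the Euclidean distance of log2(FPKM + 1) over the 4 libraries, the genes nearest to Rgs5 included Itgbl1 (distance 0.14, 2.89 and 78.5 mean FPKM) and Rbp4 (0.41, 3.54 and 80.3). The 3 nearest to Rgs4 were Xk (0.14, 0.938 and 7.99), Sema4f (0.15, 1.04 and 7.35) and Gcnt2 (0.19, 1.16 and 7.56). With 4 libraries in 2 groups, this likeness means equal levels in both populations and no more.

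Of the G alpha subunits, on which RGS proteins act, 2 of 12 tested rose and 5 fell in laminin-positive cells. The shares over all genes tested were 26.6% and 26.3%. Gnas, which encodes the stimulatory Gs alpha and is not a substrate of the classical RGS proteins, was by far the most abundant, at 1956 and 2129 against 856 and 854 FPKM, given here and below with the laminin-negative libraries first (log2 difference -1.25, SE 0.08, limma adjusted p = 4.65e-07). Gna14, of the Gq class, was at 13.4 and 14.1 against 2.39 and 2.63 FPKM. Gnaz, which encodes Gz alpha, the namesake substrate of the RZ proteins, was at 5.34 and 3.78 against 13.3 and 13.7 FPKM, which was no longer called without variance sharing between genes (0.0710). Gnai2, the most abundant inhibitory subunit, was at 170 and 174 against 192 and 197 FPKM, a call at the threshold (limma adjusted p = 0.0489) that 9 of the 14 alternatives ended, among them leaving out laminin-negative replicate 1 (0.0889) and laminin-positive replicate 1 (0.167) or 2 (0.262). Gna12 was not called (77.0 and 82.5 mean FPKM). The summed level of the 16 G alpha genes was 2504 ± 130 against 1322 ± 3.11 FPKM, most of it Gnas.

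Among G beta and gamma subunits, 5 of 14 tested rose and 6 fell, against 26.6% and 26.3% of all genes tested. The gamma subunit Gng8 was at 1.94 and 3.38 against 14.5 and 11.4 FPKM, and Gng2 at 4.23 and 5.15 against 18.0 and 20.5 (limma adjusted p = 4.91e-06 and 1.88e-07). Gngt2 went the other way, from 4.89 and 4.94 to 0.291 and 0.823 FPKM. It passed the filter only through the laminin-negative libraries, so its direction was fixed by that filter. The calls of Gng8 and Gngt2 were lost without variance shared across genes (0.0834 and 0.0622). The most abundant subunits, Gnb2, Gng5 and Gnb1, were each lower by a small margin (log2 differences -0.24, -0.36 and -0.19). Without variance shared across genes none of them was called (limma adjusted p = 0.160, 0.162 and 0.112). With equal FPKM sums the calls of Gnb2 (0.224) and Gnb1 (0.455) were lost, and each was also lost on leaving out either laminin-positive library (0.0754 and 0.165 for Gnb2, 0.236 and 0.142 for Gnb1, without replicates 1 and 2). Leaving out laminin-negative replicate 1 ended the call of Gnb2 (0.0775), and leaving out laminin-negative replicate 2 that of Gnb1 (0.115).

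Other proteins with an RGS domain rose in 7 of 14 tested cases and fell in 1, Snx14 (named after its values were seen), whose call was lost without laminin-negative replicate 2 (0.238) or laminin-positive replicate 1 (0.153) or 2 (0.116). Over all genes tested 26.6% were called higher and 26.3% lower. Receptor kinases, which switch receptors off upstream of the G protein, were among the 7 that rose. Grk3 averaged 1.87 ± 0.473 against 8.18 ± 0.167 FPKM (SD, n = 2), and Grk5 at 12.1 and 10.2 against 17.3 and 18.1. Axin2, a feedback inhibitor of Wnt signalling, was at 4.56 and 3.77 against 9.64 and 10.6 FPKM. The calls of Axin2 and Grk5 were lost without variance shared across genes (0.0557 and 0.0953). The most abundant of this group, Arhgef1, Arhgef12 and Axin1, were not called (limma adjusted p = 0.0545, 0.511 and 0.0715). Arhgef1 was called lower without laminin-negative replicate 2 (0.0191), and Axin1 (0.0200) and Arhgef12 (0.0412) were called higher without laminin-negative replicate 1.

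Of 11 tested genes among other G-protein regulators and effectors, 6 rose and 3 fell, against 26.6% and 26.3% of all genes tested. Gpsm2 and Gpsm1, which hold G alpha in its inactive state, were at 10.2 and 9.94 against 17.4 and 16.6 FPKM and at 34.3 and 31.4 against 51.8 and 49.3. Ric8a, which helps G alpha fold, was at 18.2 and 16.9 against 12.9 and 11.8 FPKM. Plcb4, a phospholipase that Gq activates, rose slightly (log2 difference 0.31, SE 0.08, limma adjusted p = 0.00614), and Plcb3 was not called (0.456). Gpsm1 (0.0558) and Ric8a (0.0843) lost their calls when no variance was shared between genes, and Plcb4 lost its own without laminin-positive replicate 2 (0.0611).

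**Figure D5:**
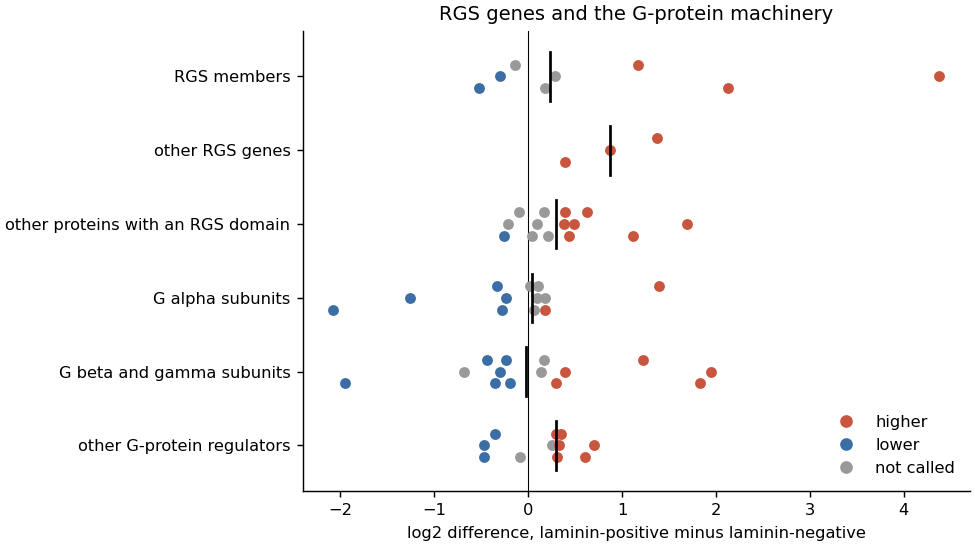
Log2 difference (laminin-positive minus laminin-negative) of every tested gene in 6 groups, with a black line at each group's median; red is called higher, blue lower and grey not called, and the vertical jitter carries no meaning. Groups run both ways apart from the 3 other RGS genes, of which Rgs17 passed the filter only through laminin-positive libraries. Gngt2 passed it only through laminin-negative ones. Rgs5 (4.38) is the point farthest from 0.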

How the data were processed

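RNA was sequenced from 2 laminin-negative and 2 laminin-positive samples, in libraries made with a directional kit per the labels' protocols. The authors deposited FPKM values, 1 column per library, per the file headers. TopHat2 2.1.1 and Cufflinks 2.2.1 are listed, with no role, per the submitters' processing notes. Build, annotation, strand setting and scaling were not given in the sources used here. Of 21201 uniquely named rows, 99.6% overlapped the GENCODE M21 gene of that symbol on GRCm38, so its coordinates are given. Strand setting being unknown, reads of antisense genes that overlap Rgs3, Rgs12 and Rgs16 cannot be told apart from theirs. Gm15503, which has no row of its own, overlaps Rgs10 on the same strand over 3374 bases. Its reads may be counted with those of Rgs10 under any strand setting. Low values showed no step of a single fragment, so depth, and with it counting error, is unknown.

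All 12348 genes with at least 1 FPKM in at least 2 libraries were fitted with limma 3.58.1 (R 4.3.3) on log2(FPKM + 1), with an intensity trend and no replicate block, two-sided, and adjusted by the Benjamini-Hochberg method. The degrees of freedom were 2 residual and, as a median, 8.21 prior. An exact permutation test of 2 against 2 cannot go below p = 0.333 and was not used. Fold values are ratios of mean FPKM. Alternatives varied the pseudocount (0.1, 5), the filter (none, 5 FPKM), scaling, variance model, block and libraries. Without variance shared across genes, p-values came from an ordinary t-test on the 2 residual degrees of freedom. For equal FPKM sums, the locus Rn45s was left out of the sums that were set equal.

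Members and lists were chosen with earlier results of these data known. Text names all members, other tested Rgs genes, the 3 largest called differences and 3 highest levels of each pathway list, the 3 nearest profiles to Rgs4 and Rgs5 (1 is not reported here), and neighbours within 500 kb. The mural list leaves out Rgs4 and Rgs5. Erythroid markers summed to at most 1.16 FPKM in any library. Grk2, Grk3, Ric8a and Adgre1 were matched by older symbols. Protein sequences were not used here.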

Additional observations from a re-analysis of the deposited data

How the results depend on the processing

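The rises of Rgs5, Rgs4, Rgs16 and Rgs11 kept direction and call in all 14 alternatives. Same-numbered libraries did not deviate together (r = 0.0081). That shows no shared effect of the numbers, but it cannot exclude that they mark shared animals, which the labels do not give. With the replicate block 4 members were higher and 2 lower, against 3376 and 3343 of all 12348 genes tested. That block left 2 other proteins with an RGS domain lower and 1 G alpha subunit higher. Equal FPKM sums moved the median log2 difference of all 12348 genes to 0.11, with 4255 of them called higher and 2382 lower. Under it 5 members were higher and 1 lower, 4 G alpha subunits higher and 2 lower, 3 beta and gamma subunits lower, 0 other proteins with an RGS domain lower by limma (0 at an unadjusted p under 0.05), and the summed member level was 73.3 and 163.5 FPKM. Without variance shared across genes, an ordinary t-test called 1346 genes higher and 1211 lower. By that t-test 0 members were lower (1 at an unadjusted p under 0.05). It called 2 other proteins with an RGS domain higher and 0 lower (0), and 0 G alpha subunits higher (3) and 2 lower. It called 3 beta and gamma subunits higher and 0 lower (3), and 2 other regulators higher and 0 lower (1). G alpha subunits called higher became 1 with a pseudocount of 5, a trimmed mean of log ratios or no intensity trend. Over the whole table these settings called 3304, 3023 and 3225 genes higher. Other proteins with an RGS domain called lower became 0 by limma with no filter (2 at an unadjusted p under 0.05) and no intensity trend (1), and 2 with a filter of 5 FPKM or a trimmed mean. That filter left 1 of the other RGS genes higher, with fewer genes tested (9274, of which 2502 were higher and 2680 lower). Of all genes, 3150 of 18255 were lower with no filter, 3070 of 12348 with no intensity trend and 3506 with the trimmed mean.

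Leaving out each library in turn gave 1 to 2 members lower and 3 to 4 higher. It gave 0 to 1 other proteins with an RGS domain lower, 1 to 2 G alpha subunits higher and 3 to 5 lower, 3 to 5 beta and gamma subunits lower, and 2 to 6 other regulators higher, the 2 without laminin-positive replicate 2. Directions turned, on the log2 scale, between -0.35 and 0.061 for Rgs10, -0.079 and 0.26 for Arhgef12 and -0.18 and 0.014 for Plcb3, each changing with the laminin-negative library left out; Plcb3 also turned with equal sums (0.032). With any 1 library left out, fewer of all genes tested were called higher, and fewer lower, than with all 4 libraries. Smaller counts in the lists above therefore need not be particular to those lists. Where no cause is named, the cause was not tested. A lone remaining library is assumed to vary like the other group. The unknown depth limits what can be read from genes near or below 1 FPKM, Rgs7 and Rgs14 first.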
